A study of Rattus norvegicus with 2 samples.

Results

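Mitochondrial ribosomal protein genes were read in the livers of rats given propolis or saline after alcohol feeding. The members were all genes whose symbol in the deposited array table was Mrpl or Mrps followed by a number and, in some, a letter a, b or c. This rule, which uses no measured value, found 66 genes with 78 probes among 17119 gene symbols and 41012 probes. By name 40 of them belong to the large and 26 to the small subunit. Where a gene had several probes the brightest stood for it, and all 66 genes carried the detection letter P on both arrays.

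Both groups were male Wistar rats, 22 weeks old, with chronic alcoholic fatty liver after 52% alcohol at a dose of 1% of body weight for 7 weeks, so no group without alcohol is compared here. For 4 more weeks one group received EEP, called propolis here after the series title, in a 50% ethanol solution, and the other received normal saline, each at 0.1% of body weight. The saline carried no ethanol, so EEP and its ethanol vehicle cannot be told apart, and the labels leave unclear whether alcohol feeding went on. The liver RNA of 6 rats made up 1 pool per group, and every pool went on a single one-colour Agilent array, which leaves no replicate, no p-value and no measure of the spread between animals.

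The mitochondrial ribosome translates the few messages of the mitochondrial genome, all of which encode subunits of the respiratory chain and the ATP synthase. Its RNAs come from mitochondrial DNA, whereas all of its proteins are encoded in the nucleus, made in the cytosol and imported. The large subunit forms the peptide bond and anchors the ribosome to the inner membrane, and the small subunit binds the message and reads its codons. Many of the proteins descend from bacterial ribosomal proteins and the others are specific to mitochondria. Hepatocytes are rich in mitochondria and keep this set of genes active.

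The mitochondrial ribosomal protein genes lay close together and slightly above 0, with a median log2 difference, propolis minus saline, of 0.08 over 66 genes. Of these, 47 were higher in the propolis pool, which is 71.2% against 52.4% of the 11912 genes tested, and 19 were lower. Single differences were small, from -0.16 for Mrps16 to 0.62 for Mrpl18. At least 1.5-fold higher was 1 member, Mrpl18, against 8.07% of all genes tested, and 0 members were at least 1.5-fold lower, against 10.2%. At a lower bar of 0.32 log2 units, 5 members (7.58%) were higher, against 17.8% of all genes, and 0 were lower, against 18.4%. No member reached 2-fold, where 3.57% of all genes were higher and 5.08% lower. These shares of all genes lean on dim ones. Of 961 genes at least 1.5-fold higher and 1216 lower, 746 and 942 had a mean log2 signal under 8, where only 4 members lay. At signals of 10 to 12, 64 of 1864 genes were at least 1.5-fold higher and 71 lower, against 1 and 0 of 27 members. The median of all genes tested was 0.02, and when the differences were centred on the median of all probes, which was 0.03, the members' median was 0.05 and 44 members were above 0.

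The members also varied less than all genes tested taken as a whole. Their interquartile range was 0.21 log2 units, from -0.01 to 0.20, against 0.43 for all genes tested. Such a range was not particular to them, since it was 0.18 for 80 cytosolic ribosomal protein genes, 0.19 for 15 ATP synthase genes and 0.23 for 33 genes of complex I. The narrower range was not confined to dim or bright probes. Among genes with a mean log2 signal of 10 to 12, the range was 0.21 for 27 members and 0.30 for all 1864 genes, and among those with a signal of 12 or more it was 0.14 for 23 members and 0.35 for all 1500 genes. Only 4 members had a signal under 8, where the range over all genes was widest (0.64). In every one of these bins most members lay above 0, from 3 of 4 at signals under 8 and 9 of 12 at 8 to 10 to 20 of 27 at 10 to 12 and 15 of 23 at 12 or more. The shares of all genes above 0 in these bins were 52.0%, 55.6%, 52.3% and 48.8%. At 12 or more, 10 of 13 large but only 5 of 10 small subunit genes lay above 0. Over the members the difference fell with mean signal (Pearson r -0.27). In the plot of difference against mean signal the members form a thin band inside the cloud of all genes.

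**Figure D1:**
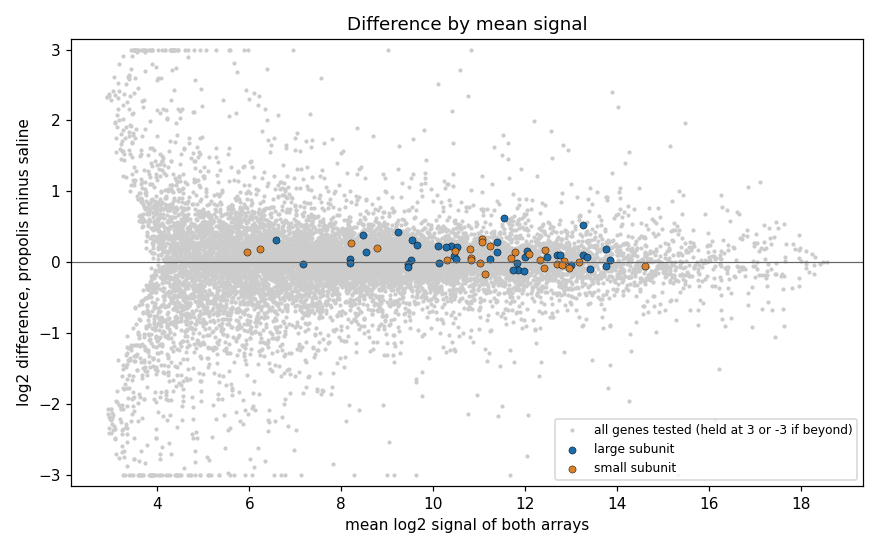
Log2 difference (propolis minus saline, vertical axis) against the mean log2 signal of both arrays (horizontal axis) for all 11912 genes tested in grey and for large subunit (blue) and small subunit (orange) genes. The coloured points stay between -0.16 and 0.62 while grey points spread over several log2 units and are drawn at the edge of the axis where they lie beyond it.

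The only error that these arrays allow is that between probes of one gene. Among 2595 genes read by several detected probes, a robust SD of 0.16 log2 units per probe was found for the difference, and it went from 0.21 at signals under 8 down to 0.12 at 10 to 12 and 0.10 at 12 or more. It covers probe and spot error and leaves out animals and pools. At more than 2 of these SDs from 0 lay 8 members (12.1%), all of them higher in the propolis pool, against 36.1% of all genes tested, of which 17.7% were higher and 18.4% lower. The 8 were Mrpl18, Mrpl14, Mrpl2, Mrpl3, Mrps36, Mrpl19, Mrps2 and Mrpl1. For the other 58 members the difference was within this probe error, so that neither a direction nor an absence of change can be read from a single one of them.

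**Figure D2:**
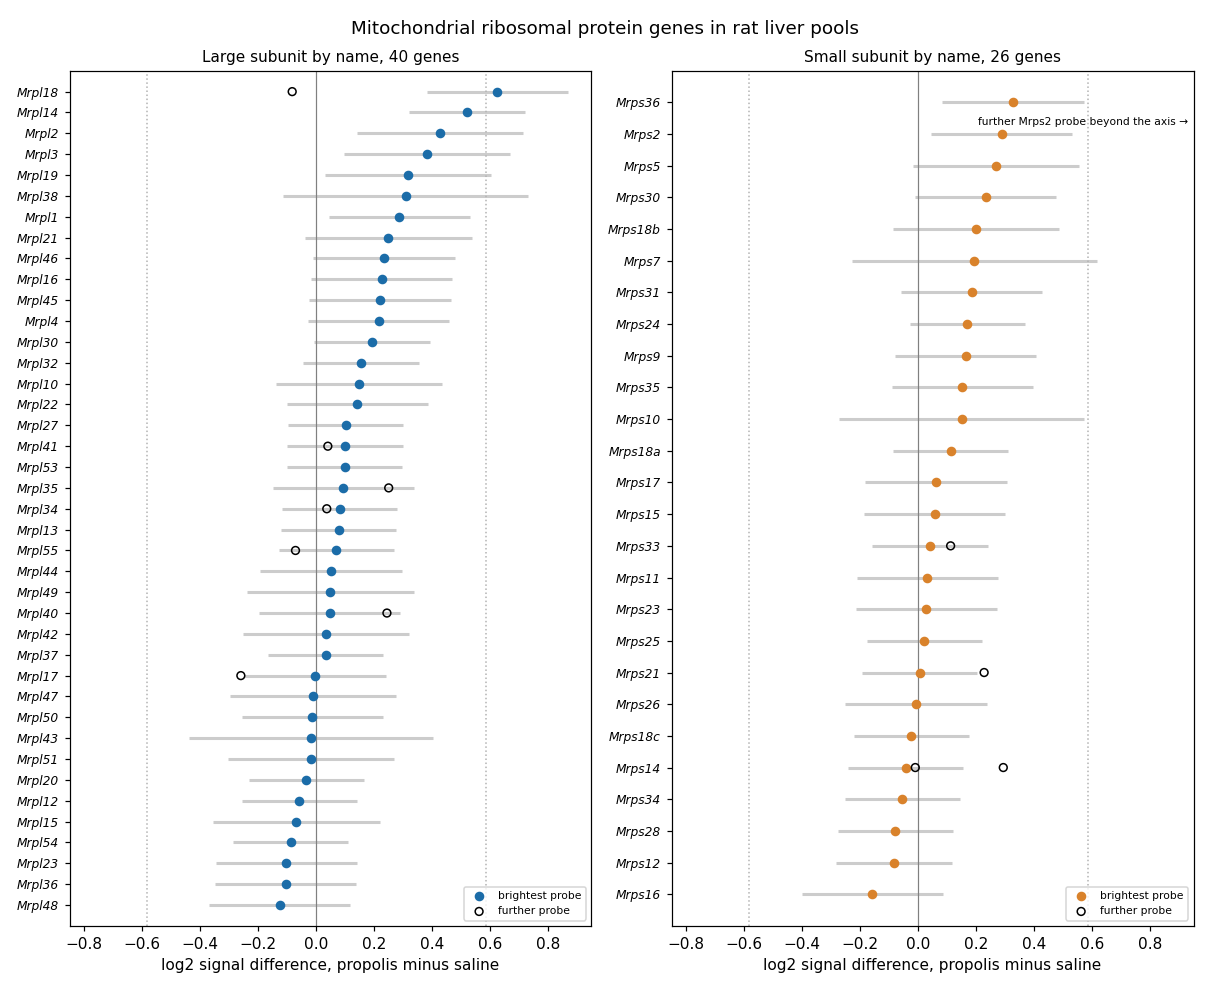
Log2 difference (propolis minus saline, horizontal axis) for each of the 40 large (blue) and 26 small (orange) subunit genes, ordered by value. Filled points are the brightest probe, open points are further probes, grey bars span 2 probe SDs either side and dotted lines mark 1.5-fold. Mrpl18 and Mrpl14 lead, and the further Mrps2 probe, detected in the propolis pool only, lies beyond the axis.

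Among large subunit genes, those with a bacterial counterpart held the highest values. Mrpl18, a protein of the central protuberance at the top of the large subunit, had a log2 signal of 11.84 in the propolis and 11.22 in the saline pool (1.54-fold). Mrpl14, which lies where the subunits meet, read 13.50 against 12.98 (log2 difference 0.52). Mrpl2, next to the peptidyl transferase centre where peptide bonds form, read 9.44 against 9.01 (0.43). For these 3 genes the propolis pool was the brighter array, by more than 2 probe SDs. Mrpl3, another protein near that centre and a gene of human combined respiratory chain deficiency, had signals of 8.66 and 8.28 (0.38). Mrpl19 gave 9.69 against 9.37 (0.32), and Mrpl38, a mitochondria-specific protein of the central protuberance, 6.74 against 6.43 (0.31), the latter within 2 probe SDs. Mrpl1, of the flexible stalk that guides spent tRNA out, differed by 0.29.

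At the lower end of the large subunit the values came close to the probe error. Mrpl48, a mitochondria-specific protein, read 11.92 in the propolis and 12.04 in the saline pool (-0.13). Mrpl36 had signals of 11.68 and 11.78 (-0.10), and Mrpl23, at the exit of the peptide tunnel, of 11.79 and 11.89 (-0.10). Each of these differences was under 2 probe SDs, as were those of Mrpl54 (-0.09) and Mrpl15 (-0.07). Mrpl12, which forms the stalk that binds elongation factors and also binds the mitochondrial RNA polymerase, read 13.72 against 13.78 (-0.06). Mrpl44, whose human counterpart is a cardiomyopathy gene, differed by 0.05.

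Small subunit genes covered a narrower span, from -0.16 to 0.33. The highest, Mrps36, read 11.22 in the propolis and 10.89 in the saline pool, but its current RefSeq symbol is Kgd4, and its product is known as a subunit of the 2-oxoglutarate dehydrogenase complex of the citric acid cycle, not of the ribosome. Mrps2, which has a bacterial counterpart, read 11.19 against 10.90 (0.29) by its brightest probe. Mrps5, near the entry of the mRNA channel, read 8.35 against 8.08 (0.27), within 2 probe SDs. The lowest member of all, Mrps16, a human mitochondrial disease gene, had signals of 11.04 and 11.20 (-0.16). Mrps12, the decoding protein in which bacterial resistance to streptomycin arises, read 12.90 against 12.99 (-0.08), and Mrps28 12.37 against 12.45 (-0.08). Mrps34, another human disease gene, differed by -0.05 and Mrps10, of the head of the subunit, by 0.15. The low values, like that of Mrps16, lay within 2 probe SDs of 0.

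The subunits did not separate. The median log2 difference was 0.09 for the 40 large and 0.06 for the 26 small subunit genes, a gap of 0.03, and 28 (70.0%) and 19 (73.1%) of them were above 0. Their interquartile ranges, from -0.01 to 0.22 and from 0.00 to 0.18, overlapped almost wholly. The gap turned to -0.01 when the detected probes of a gene were averaged, and to -0.05 when the next brightest detected probe was read, so that its sign depends on the probe. Both settings take in dim second probes of Mrps21 and Mrps33, which lie on the opposite strand in the deposited coordinates. That of Mrps21 carried P in the propolis pool only (4.43 against 4.20). Whether these probes read the gene was not tested. The 2 settings also take in further probes of other genes in both subunits, such as Mrpl17, Mrpl18, Mrpl34, Mrpl40, Mrpl55, Mrps2 and Mrps14. Which probes turn the sign of the gap was not tested. In ribosome structures Mrps18a and Mrps30 are part of the large subunit, and Mrps36 is part of neither. With that assignment, made after the values were seen, the medians were 0.10 over 42 large and 0.04 over 23 small subunit genes, a gap of 0.06. With 1 array per group the gap has no test.

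By descent, with the subunits placed by structure and all Mrps18 genes counted as bacterial, the 25 large subunit proteins with bacterial counterparts had a median difference of 0.14 and the 17 that are specific to mitochondria of 0.05. In the small subunit these medians were 0.06 over 16 and 0.03 over 7 genes. All 7 ribosomal members beyond 2 probe SDs were of bacterial descent, which is the larger group in either subunit. Of all genes tested, 36.1% lay that far from 0. The 7 include Mrpl18, whose second probe read -0.08. The split by descent was also made after the values were seen, and it is a description of these arrays.

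**Figure D3:**
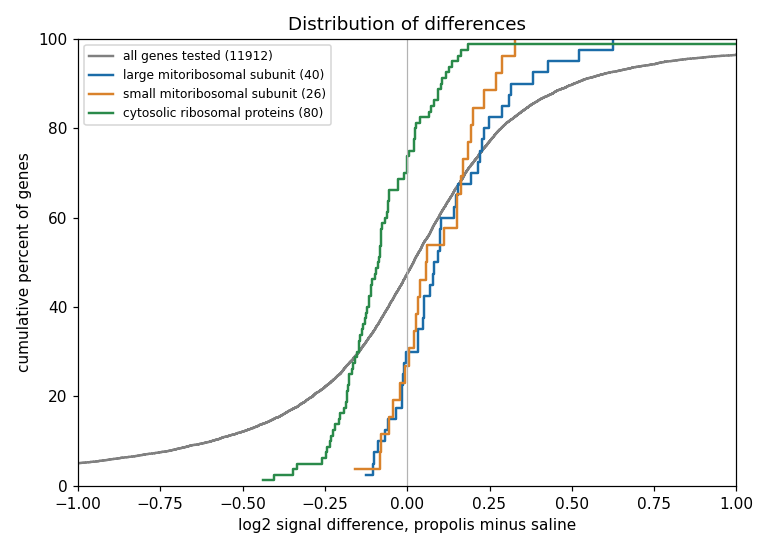
Cumulative percent of genes (vertical axis) by log2 difference, propolis minus saline (horizontal axis), for all genes tested (grey), large (blue) and small (orange) mitoribosomal subunit genes and cytosolic ribosomal protein genes (green). The blue and orange curves run together and lie to the right of the green one. Both are steeper than the grey curve.

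Probes of the same gene gave an internal check for few members, since 55 of 66 had 1 probe. In 9 members at least 2 probes carried P in both pools, and of these 3 had probes on opposite sides of 0, and the median gap between probes was 0.16. The widest gap, 0.71, was that of Mrpl18. Its second probe read 11.11 in the propolis and 11.19 in the saline pool (-0.08), so the 1.54-fold difference of the brightest probe was not seen by the other. The coordinates in the file, for which no genome build was found, place the brightest Mrpl18 probe at 42116388 to 42116447 of chromosome 1 (plus strand) and the second probe upstream of it at 42113999 to 42114058 on the same strand. Mrpl55 read 0.07 and -0.07, and the probes of Mrps14, -0.04, -0.01 and 0.29. Without Mrpl18, 0 members were at least 1.5-fold apart.

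Mrps2 had the largest difference of any member probe, on a probe that was not its brightest. That probe had a log2 signal of 7.07, with P, in the propolis pool and of 3.50, with the letter A, in the saline pool. Set against the lowest detected signal of the saline array (3.83), it was at least 9.44-fold higher in the propolis pool. Its deposited coordinates run on chromosome 3 from 7458355 to 7458872, and the brightest Mrps2 probe, at 0.29, lies from 7460990 to 7461049. Of 2533 genes that had a further detected probe and a brightest probe within 1.5-fold, Mrps2 was 1 of 2 with a further probe at least 8-fold apart. When the detected probes of a gene were averaged, and when the next brightest one was read, Mrps2 was the 1 member at least 1.5-fold higher. Both readings rest on its dimmer probe, whose saline value of 3.50 was used though not detected, and are no separate evidence.

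Second probes of Mrpl34, Mrps21 and Mrps33 lie on the opposite strand from the brightest probe of the same gene in the deposited coordinates, and their signals were far dimmer (log2 4.67, 4.43 and 5.62 in the propolis pool). Whether they read antisense transcripts was not tested. In RefSeq (GRCr8), 24 members have at least 1 pseudogene or like-named relative, counted by name, most of all Mrpl30 with 9. Probe sequences were not at hand, so whether such copies add to the signal of the gene was not tested.

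The Mrps18 genes are paralogs that stem from 1 bacterial protein, and their promoters are shown because all 3 carry the ETS motif. Mrps18a, whose product is in the large subunit in ribosome structures, read 12.15 in the propolis and 12.03 in the saline pool (0.11). Mrps18b read 8.88 against 8.68 (0.20) and Mrps18c 12.67 against 12.70 (-0.02), each within 2 probe SDs. The stretches below, from RefSeq (GRCr8), run 5′ to 3′ on the strand of the gene, from 140 bases before to 10 bases after the start site. Capitals mark matches to CCGGAAG, the core bound by ETS factors such as GABPA, to GCGCANGCG, bound by NRF1, and to AAGATGGCG, bound by YY1, on either strand. These factors are known to act at many nuclear genes of mitochondrial proteins. Mrps18a lies at chr9:22367371-22367520 (minus strand), Mrps18b at chr20:2842866-2843015 (plus) and Mrps18c at chr14:9122897-9123046 (minus).
Mrps18a: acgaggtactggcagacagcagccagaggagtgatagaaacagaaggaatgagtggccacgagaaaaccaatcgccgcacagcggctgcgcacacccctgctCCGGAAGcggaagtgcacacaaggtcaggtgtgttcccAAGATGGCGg
Mrps18b: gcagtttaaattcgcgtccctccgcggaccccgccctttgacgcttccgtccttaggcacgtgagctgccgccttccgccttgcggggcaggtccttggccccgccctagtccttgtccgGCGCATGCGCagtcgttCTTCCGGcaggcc
Mrps18c: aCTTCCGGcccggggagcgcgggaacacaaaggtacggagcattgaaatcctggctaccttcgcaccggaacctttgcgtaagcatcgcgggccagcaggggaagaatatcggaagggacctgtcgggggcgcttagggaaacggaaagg
The ETS core stands once in each, beside the YY1 motif in Mrps18a and the NRF1 motif, present on both strands at a single place, in Mrps18b.

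The ends of the range are shown next, Mrpl18 and Mrpl14 as the highest members and Mrps16 as the lowest. They lie at chr1:50384812-50384961 (plus strand), chr9:22811224-22811373 (minus) and chr15:3967669-3967818 (plus), over the same span around the start site and with the same meaning of capitals.
Mrpl18: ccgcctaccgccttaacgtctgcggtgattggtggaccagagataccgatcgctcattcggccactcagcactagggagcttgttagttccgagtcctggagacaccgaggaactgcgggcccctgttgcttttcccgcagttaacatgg
Mrpl14: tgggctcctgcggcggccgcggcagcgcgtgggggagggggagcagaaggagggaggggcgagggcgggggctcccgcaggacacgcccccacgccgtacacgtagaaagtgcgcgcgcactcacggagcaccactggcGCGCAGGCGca
Mrps16: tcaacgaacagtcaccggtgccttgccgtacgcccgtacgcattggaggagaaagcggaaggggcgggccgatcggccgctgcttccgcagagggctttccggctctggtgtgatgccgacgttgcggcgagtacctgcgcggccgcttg
Mrpl14 holds an NRF1 match across its start site, and the other two hold none of these letters in this window or in the longer window of 250 bases before to 50 after the start.

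In that longer window, 29 of 53 members with a promoter in RefSeq (54.7%) held at least 1 of the motifs, against 28.4% of the 9338 tested genes with one and 15.5% of all 27457 promoters. The ETS core stood in 16 members (30.2%, against 16.9% of tested genes and 9.22% of all promoters). The NRF1 motif stood in 11 (20.8%, against 12.4% and 6.26%), and the YY1 motif in 8 (15.1%, against 3.44% and 1.93%). The letters of the ETS and YY1 motifs can overlap, but in 0 members did matches of different motifs do so, and 6 members held more than 1 motif. CpG dinucleotides numbered a median of 18 in members and 20 in tested genes. The median difference was 0.10 for 16 members with the ETS core and 0.06 for 37 without it, 0.15 for 11 with and 0.05 for 42 without the NRF1 motif, and 0.07 for 8 with and 0.07 for 45 without the YY1 motif. These gaps have no test. By subunit, 20 of 32 large and 9 of 21 small subunit genes held a motif. The letters searched were set after the values were seen. A match is a description of the letters and says nothing of binding in these livers.

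Head-to-head starts were more frequent among the members than among tested genes. Of 53 members, 16 (30.2%) started head to head with another protein-coding gene whose start lay within 1000 bases on the opposite strand, against 10.4% of 9332 tested genes. Mrpl46 and Mrps11, 1 of each subunit, are such a pair, with differences of 0.23 and 0.03. Mrpl18 shares its start region with Tcp1, a subunit gene of the cytosolic chaperonin, which read 12.45 in the propolis and 12.05 in the saline pool (0.40). Mrps18b (0.20) faces Ppp1r10, a phosphatase regulator gene, which read 9.69 against 10.48 (-0.79), the widest partner difference. In 8 of 14 cases with both genes measured, with the Mrpl46 and Mrps11 pair counted from either side, both lay on the same side of 0. The same share for head-to-head pairs of all tested genes was not computed, so a shared direction cannot be read from this count. The partners' median was -0.02 and that of the members facing them 0.13.

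Proteins of the mitochondrial ribosome also carry other symbols. The list of these had 8 measured genes, with a median of 0.02 and 4 above 0. It includes Oxa1l (0.05), an inner membrane insertase gene and not a ribosomal protein gene, which is among the 4 above 0. The peptide release factor gene Ict1, now Mrpl58 and part of the large subunit, read 11.09 in the propolis and 10.83 in the saline pool (0.26). Aurkaip1 (0.18), Mrp63 (-0.06) and Gadd45gip1 (-0.06) followed by distance from 0. Of 30 listed symbols of genes that build the mitochondrial ribosome, older symbols included, 16 were measured. Of these, 12 were above 0 with a median of 0.15. At least 1.5-fold higher were 2 of the 16, against 8.07% of all genes tested, and 0 were lower, against 10.2%. Fastkd2, which binds the 16S RNA, read 10.35 against 9.76 (1.51-fold). Mrm1, an RNA methyltransferase gene, was at least 2.06-fold higher at a low signal (5.07, with P, against 4.03, with A). It thus passed the filter only through the propolis pool, where it is high, and is counted in the 12 and in the 2. The methyltransferase genes Nsun4 (0.54) and Tfb1m (0.45) came next.

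Among 10 measured translation factors and helpers of 19 listed symbols, 8 lay above 0 (median 0.13). At least 1.5-fold apart were 0 of the 10, where 8.07% of all genes tested were higher and 10.2% lower. Lrpprc, which stabilises mitochondrial messages, read 11.48 in the propolis and 11.06 in the saline pool (0.42). The ribosome recycling factor gene Mrrf lay the other way at 10.21 against 10.61 (-0.40). The release factor gene Mtrf1l (0.29) and the elongation factor gene Tufm (0.23) were the next from 0. In the list of mitochondrial DNA transcription and replication, 7 of 10 measured genes of 15 symbols were above 0 (median 0.11). Tfam, which packages mitochondrial DNA and starts its transcription, read 11.77 against 11.41 (0.36), and the RNA polymerase gene Polrmt 12.24 against 12.48 (-0.24). Also in that list, the single-strand binding protein gene Ssbp1 differed by 0.54, Tfb2m by 0.43 and the polymerase subunit gene Polg2 by -0.62 (1.53-fold lower).

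Regulators of mitochondrial biogenesis lay on either side of 0, with 7 of 12 above it and a median of 0.04. Nrf1, at low signals of 4.94 and 4.54, differed by 0.40, within 2 probe SDs, and Myc, at 8.43 and 8.06, by 0.38. Gabpa differed by 0.18 and Esrra by -0.07. The coactivator genes Ppargc1b (7.88 against 8.18, -0.30) and Ppargc1a (4.58 against 4.75, -0.16) were lower in the propolis pool, the latter within 2 probe SDs. None of the 12 was 1.5-fold apart, where 8.07% of all genes tested were higher and 10.2% lower.

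Cytosolic ribosomal protein genes lay on the other side of 0. Their median was -0.09 over 80 genes, with 21 (26.2%) above 0, against 0.08 and 47 of 66 for the mitochondrial set. Of the cytosolic set 1 gene was at least 1.5-fold higher, against 8.07% of all genes tested, and 0 lower, against 10.2%. The 4 furthest from 0 were the paralog gene Rpl10l (10.25 against 9.23, 1.03), Rpl41 (-0.44), Rps26 (-0.40) and Rps2 (-0.35). The respiratory chain, whose mitochondria-encoded subunits are made by this ribosome, lay near 0 in its nuclear subunits. Complex I genes had a median of -0.03 over 33, with 14 above 0, genes of complexes II to IV -0.01 over 23, with 10 above 0, and ATP synthase genes -0.07 over 15, with 5 above 0. Of these 3 lists 1 gene, Atp5hl1, was at least 1.5-fold apart (8.48 against 7.84, 1.55-fold higher), to be set against the same shares of all genes. Centring on the median of all probes takes 0.03 from every list alike and leaves the gaps between lists as they are. These gaps have no test with 1 array per group. The lists also differ in brightness, which centring does not address. The highest saline signal was 17.24 among cytosolic ribosomal protein genes and 14.62 among members. At a mean signal of 12 or more, the 23 members had a median of 0.04. The part of brightness in the gaps was not tested.

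**Figure D4:**
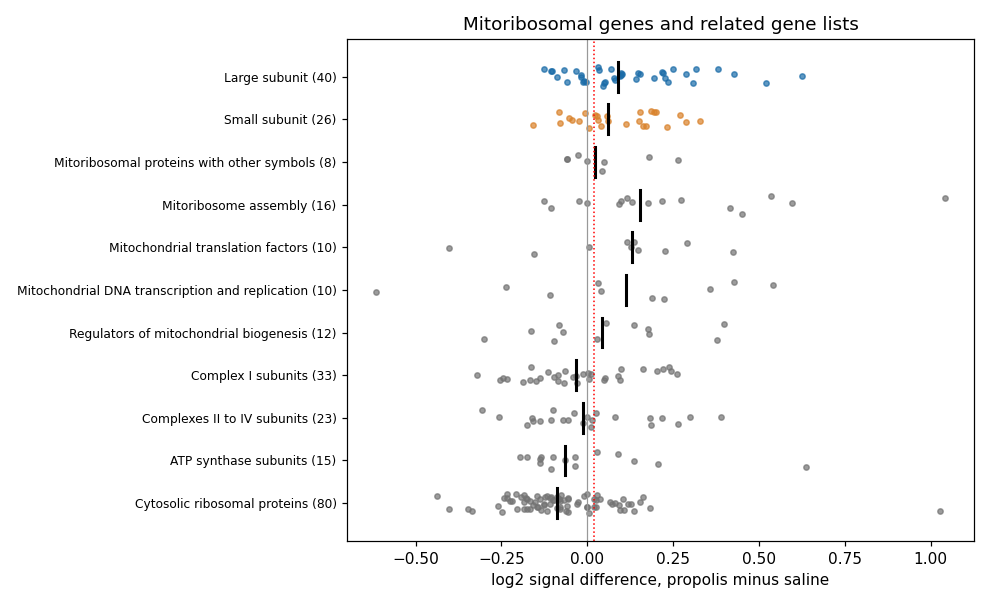
Log2 difference (propolis minus saline, horizontal axis) of each gene in the mitoribosomal subunits and in related gene lists, with the number of genes in brackets. Black bars are medians, and the red dotted line is the median of all genes tested (0.02). Assembly, translation and transcription lists lie to the right, and cytosolic ribosomal proteins to the left.

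As bulk liver RNA, the pools cannot tell fewer cells of a type from less RNA per cell. All 10 hepatocyte markers were measured, of which 3 were higher and 6 lower in the propolis pool (median -0.07), from Ttr at 0.26 and Alb at 0.21 to Cps1 at -0.56 and Hpx at -0.66. Their summed signal was 20.84 in the propolis and 20.90 in the saline pool on the log2 scale. Of 8 macrophage markers 7 were measured and 6 were lower in the propolis pool (log2 summed signal 15.19 against 15.73). The same held for 4 of 5 measured T and NK cell markers of 7 listed (9.91 against 10.53), both measured erythroid markers of 6 (11.40 against 12.31) and all 4 measured markers of dividing cells of 5 (7.87 against 9.24). Of the dividing cell markers, Top2a carried P on 1 array only (3.09 in the propolis and 7.09 in the saline pool). It thus passed the filter through 1 pool. Markers that were not measured included Cd5l, Cd3e, Cd2, Krt7, Sox9 and Mki67. Stellate markers were higher in 4 of 5 (11.91 against 11.45). Endothelial markers were lower in 4 of 5 (median -0.63). Their sums of 14.26 and 14.26 are mostly Kdr, the 1 higher marker (14.04 against 13.94). Of 3 measured cholangiocyte markers of 5, 2 were lower (8.51 against 8.36 in sum). Of these 2, Cftr carried P on 1 array only (3.62 in the propolis and 6.09 in the saline pool). The summed signal of the 66 members was 18.07 against 18.01. The part of cell composition in the members' values was not tested.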

How the data were processed

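Liver RNA pools of 6 rats with an integrity number above 8.5, per the labels, were labelled with Cy3. Per the submitters' processing notes, array images went through Feature Extraction 9.5. The authors deposited log2 signals for 41012 probes on 2 arrays, letters for detection (P, M, A) and a linear fold ratio that equals 2 to the power of propolis minus saline within 1.84e-07 log2 units. The deposited columns have the same median (5.07) and their sorted values differ by at most 0.03. How the background was corrected and what the letters stand for was not found in the labels or headers; P was taken as detected. The deposited series matrix holds the same log2 values, rounded, for 23054 probes, with medians of 7.53 and 7.52.

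Here each gene symbol of the file stood by its brightest probe, the one of highest mean signal, and was kept with P on at least 1 array, as 11912 were. The log2 difference was described by counts, medians and folds, with no test. A bound is the fold over the dim array's lowest signal with P, or over the dim value if that is higher. Probe error is the scaled median absolute deviation of the difference between the brightest and next probe, divided by the square root of 2. All 66 members matched RefSeq by Entrez ID, 53 with a promoter, of which the first listed was used.

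Named were the 8 highest and 8 lowest members, the 3 highest and 3 lowest of each subunit, those at least 1.5-fold apart or with probes on opposite sides of 0, members of a known special role, and in other lists up to 4 genes furthest from 0 and set regulators; Mrpl1, Mrpl46, Mrps11 and others outside this were chosen after their values were seen. Mrps22 has no probe under this symbol and is not analysed here, nor are Mgme1, Mterf1, Mterf2, Tefm, Twnk and other listed genes that were not measured. The members and lists were chosen with earlier results of these data known. Scripts were tested on simulated data. Python 3.11.15, numpy 2.4.6, pandas 2.3.3, statsmodels 0.14.6 and matplotlib 3.10.9 were used. The number of arrays limits the precision.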

Additional observations from a re-analysis of the deposited data

How the results depend on the processing

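The counts of members above 0 (44 to 49) and at least 1.5-fold lower (0) kept within 1.5 times of the reported count under all alternatives tried, and the medians of the members and of each subunit stayed above 0. Centring on the median of all probes gave medians of 0.0505 for all members, 0.0587 for the large and 0.0300 for the small subunit. For the small subunit the median was 0.10 with the mean of detected probes and 0.11 with the next brightest detected probe, and under these settings the gap between the subunits reversed to -0.0082 and -0.0474. Both settings take in dim second probes of Mrps21 and Mrps33 on the opposite strand, and further probes of other genes in both subunits. At least 1.5-fold higher became 5 members at the lower bar of 0.32 log2 units, 0 at 2-fold and 0 without Mrpl18, a setting chosen after seeing the data, as were the subunits by ribosome structure and the addition of symbols in lower case. Removing a loess trend (span 0.3), taking the series matrix, asking for P on both arrays or for no letter at all, updating symbols and adding 50 signal units moved each median by less than the probe SD divided by the square root of the number of genes and no count by over 1.5 times. No paired analysis was possible because each group has 1 array. Differences within 2 probe SDs, with an SD of 0.10 log2 units for bright and 0.21 for dim probes, could not be resolved.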

Other observations

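Some probes of mitochondrial ribosomal proteins fall outside the symbol rule. The file writes mrpl9, mrpl11 and mrpl24 in lower case. The mrpl9 gene, named after its values were seen, read 13.21 in the propolis and 12.84 in the saline pool (log2 difference 0.37) and by its second probe 0.28, whereas mrpl11 differed by -0.14 and mrpl24 by -0.06. Among probes without a symbol, those described as S27 differed by 0.38 and 0.41, that described as S6 by 0.36 and that described as L33 by -0.27. A probe described as L42, at low signals of 5.78 and 4.78, differed by 0.99, while the brightest probe of Mrpl42 differed by 0.03. The probe of LOC684304, described as similar to L39, differed by 0.33. With the lower-case symbols added, 48 of 69 genes were above 0 and the median was 0.08.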
